A study of Mus musculus with 6 samples.

Results

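The VEGF and angiopoietin system of the mouse retina was described through 10 genes, which were chosen by name as the ligands and receptors that steer growth and leakiness of retinal vessels. They are the ligands Vegfa, Vegfb, Vegfc and Pgf, the receptors Flt1 and Kdr, the co-receptor Nrp1, the ligands Angpt1 and Angpt2 and their receptor Tek. All 10 were found by gene symbol among the 32285 genes of the count table, and all 10 had the total count of at least 10 that was required for testing, as did 20021 genes in all.

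Bulk RNA sequencing had been made of whole retinas of wild-type C57BL/6J mice at postnatal day (PN) 18, with 3 libraries of each of 2 groups. All mice had oxygen-induced retinopathy (OIR): pups stayed in 75% O2 with their mothers from PN8 to PN13, which obliterates central retinal capillaries, and the ischemic retina then grows new vessels in room air. From the end of hyperoxia at PN13 until harvest, the cage O2 of OIR-CIH mice swung from 20.95% to 5% and back. It did so in 266 cycles of 135 s over 10 h of each day, which is chronic intermittent hypoxia (CIH). OIR-Norm mice had the same gas flow and noise at constant O2. Retinas of mice without OIR were not analysed here, so the comparison is of CIH against constant O2 within OIR and at 1 age.

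VEGF-A is released by glia and neurons short of oxygen, because hypoxia-inducible factor (HIF) switches its gene on, and it drives endothelial cells to divide, migrate and leak through the receptor tyrosine kinase VEGFR2, the product of Kdr. VEGFR1, the product of Flt1, binds VEGF-A more tightly but signals weakly and acts largely as a trap, also in a secreted form, and it is the receptor of the products of Vegfb and Pgf. Angiopoietin 1, made mostly by perivascular cells, keeps vessels quiet through TIE2, the product of Tek, whereas angiopoietin 2, released by activated endothelial cells, mostly opposes it and loosens vessels that are being remodelled.

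Because Vegfa is a target of HIF, the promoters of the members were searched for the core of the hypoxia response element. The windows of 300 bases run from 250 before to 50 after the annotated start and come from RefSeq on GRCm38.p6. They are printed on the strand of the gene, 5′ to 3′, with each match to ACGTG or GCGTG on either strand in capitals. A match on the other strand reads CACGT or CACGC here, and overlapping matches were counted separately. Shown are Vegfa at both of its annotated starts, its receptor genes Flt1 and Kdr and, for contrast, Ankrd37, the HIF-induced gene that passed the test below.
Vegfa first start, chr17:46032328-46032627, minus strand: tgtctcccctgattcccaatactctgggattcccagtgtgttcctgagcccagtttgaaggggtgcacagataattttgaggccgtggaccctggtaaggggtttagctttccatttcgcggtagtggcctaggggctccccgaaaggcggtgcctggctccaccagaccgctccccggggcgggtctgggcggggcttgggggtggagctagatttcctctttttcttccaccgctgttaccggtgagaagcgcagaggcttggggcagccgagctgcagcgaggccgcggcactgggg
Vegfa second start, chr17:46025114-46025413, minus strand: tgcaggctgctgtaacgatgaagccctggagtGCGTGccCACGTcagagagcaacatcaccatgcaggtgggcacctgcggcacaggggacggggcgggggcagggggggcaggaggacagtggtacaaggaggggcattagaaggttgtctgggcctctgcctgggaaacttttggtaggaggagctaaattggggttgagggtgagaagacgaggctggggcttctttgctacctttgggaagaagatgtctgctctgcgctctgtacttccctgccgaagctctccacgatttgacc
Flt1, chr5:147725962-147726261, minus strand: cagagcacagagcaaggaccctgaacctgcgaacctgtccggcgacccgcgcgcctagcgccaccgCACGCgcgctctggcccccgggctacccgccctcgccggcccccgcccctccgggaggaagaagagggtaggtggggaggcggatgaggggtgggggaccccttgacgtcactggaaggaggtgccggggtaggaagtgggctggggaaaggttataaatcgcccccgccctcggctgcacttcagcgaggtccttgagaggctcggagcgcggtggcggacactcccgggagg
Kdr, chr5:75978406-75978705, minus strand: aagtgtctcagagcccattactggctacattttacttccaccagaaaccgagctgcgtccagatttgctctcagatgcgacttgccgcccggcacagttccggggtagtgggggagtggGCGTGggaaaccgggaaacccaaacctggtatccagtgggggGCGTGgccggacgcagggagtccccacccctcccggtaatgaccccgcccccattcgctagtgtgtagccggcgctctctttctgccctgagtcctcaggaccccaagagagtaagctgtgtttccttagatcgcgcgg
Ankrd37, chr8:45999801-46000100, minus strand: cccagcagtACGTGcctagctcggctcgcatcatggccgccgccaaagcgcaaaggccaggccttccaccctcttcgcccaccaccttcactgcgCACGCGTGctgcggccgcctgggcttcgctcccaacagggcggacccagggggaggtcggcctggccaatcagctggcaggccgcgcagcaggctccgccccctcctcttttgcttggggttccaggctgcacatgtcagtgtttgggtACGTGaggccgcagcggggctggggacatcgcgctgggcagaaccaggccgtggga

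Promoter windows were found for 8 of the 10 members, and 6 of their 10 windows, 1 for each of 6 genes, held a match. Such a match was held by 43.8% of all 32851 promoters in the same table, so it is common in windows of this length. The window at the first Vegfa start held 0 matches. The window at its second start, which lies downstream within the gene, held 2, at 218 and 211 bases before that start. The Flt1 window held 1 match, 184 bases before the start, and the Kdr window held 2, at 131 and 89 bases before it. The Ankrd37 window held 4, at 241, 155, 152 and 6 bases before the start, of which the middle pair overlap on opposite strands in the run CACGCGTG. Vegfb held 2 matches, Nrp1 held 1 and Pgf held 1 at its first start, whereas Vegfc and Tek held 0. The matches are letters in a window and not measured binding sites. Sequence outside these windows was not searched, so a window without a match does not mean that the gene lacks the element.

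Total counts ran from 26289905 to 38010151 per library. Levels are given as CPM, read counts divided by the library total after the trimmed mean of M-values had set a common scale. The OIR-Norm replicate 2 stood apart from the other libraries. Its 4 measured lens markers, among them Crybb2, summed to 254.7 CPM against 8.76 to 43.6 CPM in the other 5 libraries, and its 11 endothelial markers, among them Pecam1, Cdh5 and Cldn5, summed to 113.7 CPM against 49.0 to 78.1 CPM. Member values that moved by more than 1.5 times without it are therefore given both ways. The rod photoreceptor markers of a retina summed to between 43145 and 56503 CPM in every library. All 6 libraries held transcripts of Y-linked genes, from 57.3 to 184 CPM in sum, and of Xist, which is made from the inactive X of female cells, from 298.5 to 1653 CPM, at levels that differed between libraries of the same group. Each library may thus hold RNA of more than 1 animal, and how many is not known. The sum of the 4 Y-linked genes was 57.3, 111.3 and 109.9 CPM in OIR-CIH and 172.2, 69.7 and 183.8 CPM in OIR-Norm. The groups overlapped in this sum, but all 4 genes had negative log2 fold changes, with a median of -0.64. Animal make-up may thus differ between the groups. Each group had 3 eyes, and no source used here says that these came from separate animals, so p-values measure the spread between libraries only. In a bulk retina, fewer cells of a type and less RNA per cell cannot be told apart.

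No member passed the test. Genes were compared with edgeR's quasi-likelihood test, and a call needed a Benjamini-Hochberg adjusted p under 0.05 over all 20021 genes and an absolute log2 fold change over 0.5. Called were 0 of 10 members, beside 79 genes or 0.395% of all genes tested, so that a count of 0 among 10 genes does not stand out. The adjusted p of the members ran from 0.293 for Pgf to 0.977 for Kdr (edgeR). DESeq2 and limma also called 0 members. At an unadjusted p under 0.05, edgeR gave 2 members, Pgf and Flt1, both lower in OIR-CIH, where 13.1% of all genes tested reached that level in either direction and 6.79% did so on the lower side. Of the fitted log2 fold changes of OIR-CIH against OIR-Norm, 4 were positive and 6 negative, with a median of -0.09 against -0.0028 over all genes tested. The values of both groups overlapped for all 10 members, whereas they did not overlap for 18.4% of all genes tested.

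**Figure D1:**
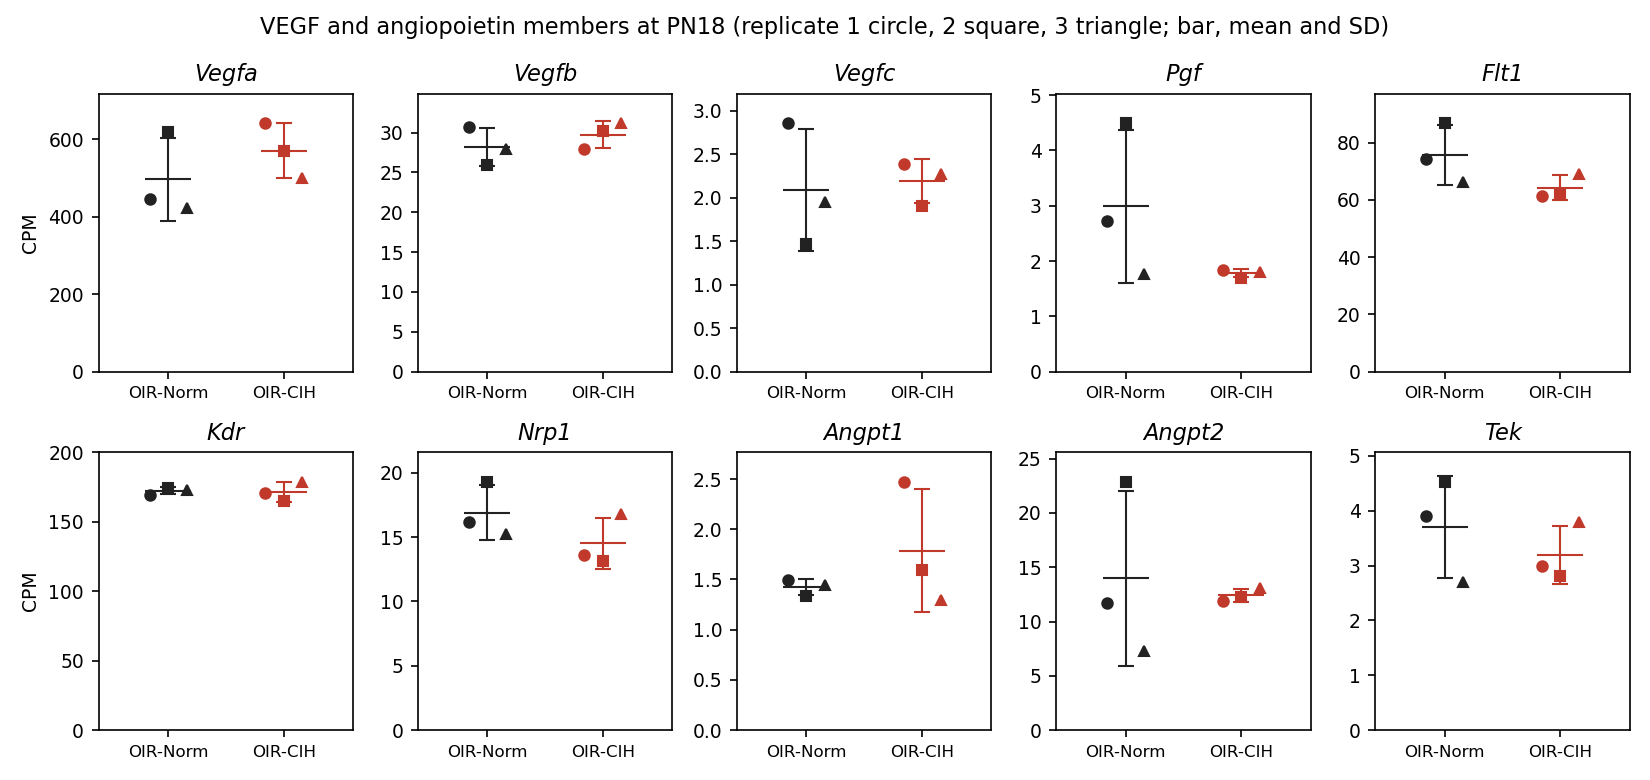
Level in CPM (vertical axes, from 0) of each member in the 3 OIR-Norm and 3 OIR-CIH libraries, with circle, square and triangle for replicates 1, 2 and 3 and bars for the mean and SD over 3 libraries. The groups overlap in all 10 panels, and the OIR-Norm square is the highest point for Pgf, Flt1, Nrp1, Angpt2 and Tek.

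Levels of different genes were compared per kilobase of exon, since a longer transcript yields more reads. Vegfa led by far, with 115.7 ± 24.8 CPM per kb in OIR-Norm and 133.0 ± 16.5 CPM per kb in OIR-CIH (SD, n = 3 libraries each), and it ranked 176 by CPM among all genes in the table. Kdr followed with 19.1 ± 0.288 CPM per kb in OIR-Norm, and Vegfb with 17.6 ± 1.49 CPM per kb. Kdr was the higher of this pair in 4 of 6 libraries. The ranges of this pair over the 6 libraries overlapped, from 18.3 to 19.8 CPM per kb for Kdr and from 16.2 to 19.4 CPM per kb for Vegfb. Flt1, at 4.55 to 6.42 CPM per kb, and Angpt2, at 1.98 to 6.20 CPM per kb, had overlapping ranges too, although Flt1 was the higher of the pair in each of the 6 libraries, most narrowly in OIR-Norm replicate 2 with 6.42 against 6.20 CPM per kb. Nrp1 stood at 1.34 to 1.97 CPM per kb, below Angpt2 and above Pgf in all 6 libraries. Pgf, Vegfc and Tek came next with mutually overlapping ranges between 0.573 and 1.55 CPM per kb. None of these 3 was above another in all 6 libraries. Angpt1 was the lowest in every library, at 0.249 to 0.475 CPM per kb. Among the 5 VEGF ligand genes, with Vegfd counted in, Vegfa gave 82.8% to 88.7% of the summed level per kb in each library, Vegfb 9.94% to 15.2% and Pgf 0.377% to 0.951%.

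Vegfa, the hypoxia-driven ligand of the family, was measured at 640.5, 570.1 and 498.8 CPM in OIR-CIH replicates 1 to 3 and at 446.5, 617.6 and 422.9 CPM in OIR-Norm replicates 1 to 3. The OIR-Norm replicate 2 lay inside the range of the OIR-CIH libraries, and the other OIR-Norm libraries lay below all of them. The fitted log2 fold change was 0.20 (95% interval -0.10 to 0.50, edgeR adjusted p = 0.578). Without OIR-Norm replicate 2 it was 0.39 (95% interval 0.16 to 0.62), with an unadjusted p of 0.00293 and an adjusted p of 0.262 (edgeR), and with the level of 4 Y-linked genes as a covariate it was 0.02 (edgeR adjusted p = 0.967). It was 0.10 without OIR-Norm replicate 3 and 0.11 without OIR-CIH replicate 1, so that single libraries moved it both ways. The interval over 6 libraries leaves room for a rise of up to 0.50 and for a fall of 0.10 on the log2 scale. The Y-linked sum was lowest in OIR-CIH replicate 1 and OIR-Norm replicate 2, the libraries with the most Vegfa. The part of animal make-up in the Vegfa values was not tested beyond the covariate fit. Gene counts sum all splice forms of Vegfa.

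The other VEGF ligands differ from Vegfa in receptor use. Vegfb, a ligand of VEGFR1, was measured at 27.9, 30.2 and 31.2 CPM in OIR-CIH and 30.7, 26.0 and 27.9 CPM in OIR-Norm, with a log2 fold change of 0.08 (95% interval -0.12 to 0.28, edgeR adjusted p = 0.763), or 0.02 without OIR-Norm replicate 2. Vegfc, the ligand of the lymphatic receptor VEGFR3, was rare, at 2.39, 1.91 and 2.28 CPM in OIR-CIH and 2.86, 1.47 and 1.95 CPM in OIR-Norm. Both OIR-Norm extremes of Vegfc lay outside the OIR-CIH range, and its log2 fold change was 0.06 (95% interval -0.45 to 0.58, edgeR adjusted p = 0.940), or -0.13 without OIR-Norm replicate 2, with 42 to 88 counts per library.

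Pgf, placental growth factor, had the lowest p of all members. It was measured at 1.84, 1.70 and 1.80 CPM in the OIR-CIH libraries and at 2.73, 4.49 and 1.76 CPM in the OIR-Norm libraries, from 47 to 128 counts per library. The OIR-CIH values lay close together at the low end, the OIR-Norm values spread 2.55-fold, and OIR-Norm replicate 3 lay within the OIR-CIH range. The log2 fold change was -0.74 ± 0.28 (SE; 95% interval -1.34 to -0.14), with an unadjusted p of 0.0189, rank 1293 of 20021 genes, and an adjusted p of 0.293 (edgeR). Without OIR-Norm replicate 2 it was -0.33 (adjusted p = 0.742) and without OIR-Norm replicate 3 it was -1.01 (adjusted p = 0.0745, edgeR), so that the size rested on single libraries. With the Y-linked covariate its 95% interval was -1.53 to -0.48 (edgeR adjusted p = 0.0804).

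Flt1, the gene of the decoy receptor VEGFR1, was measured at 61.5, 61.9 and 69.2 CPM in OIR-CIH and at 74.2, 86.8 and 66.2 CPM in OIR-Norm. Again OIR-Norm replicate 2 was the highest and OIR-Norm replicate 3 lay among the OIR-CIH libraries. The log2 fold change was -0.24 ± 0.09 (SE; 95% interval -0.44 to -0.04), with an unadjusted p of 0.0235 and an adjusted p of 0.308 (edgeR). It was -0.13 without OIR-Norm replicate 2 (edgeR adjusted p = 0.704). The counts join full-length and secreted Flt1 transcripts, which could not be separated.

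Kdr, the gene of the main signalling receptor VEGFR2, had the narrowest range of all members over the 6 libraries. It was measured at 170.9, 164.9 and 178.9 CPM in OIR-CIH and at 169.6, 174.8 and 172.8 CPM in OIR-Norm, so that all OIR-Norm libraries lay inside the OIR-CIH range. The log2 fold change was -0.01 (95% interval -0.16 to 0.15, edgeR adjusted p = 0.977), and it was 0.0021 without OIR-Norm replicate 2. The coefficient of variation was 1.51% over the OIR-Norm libraries, in which the endothelial marker sum ran from 49.0 to 113.7 CPM. In the retina Kdr is also known to be transcribed outside vessels, in neurons.

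Nrp1, the co-receptor that presents VEGF-A to VEGFR2, was measured at 13.6, 13.1 and 16.8 CPM in OIR-CIH and at 16.2, 19.3 and 15.3 CPM in OIR-Norm. OIR-CIH replicate 3 overlapped the OIR-Norm range and the other OIR-CIH libraries lay below it. The log2 fold change was -0.22 (95% interval -0.48 to 0.05, edgeR adjusted p = 0.495), and it was -0.11 without OIR-Norm replicate 2. For Vegfb, Flt1, Kdr and Nrp1 the whole 95% interval lay within 0.5 of 0 on the log2 scale, the size a call required, and this held for 54.4% of all genes tested. For the other 6 members the interval reached past 0.5 on at least 1 side, by a hair for Vegfa, so that a change of that size could be neither shown nor set aside with these libraries.

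**Figure D2:**
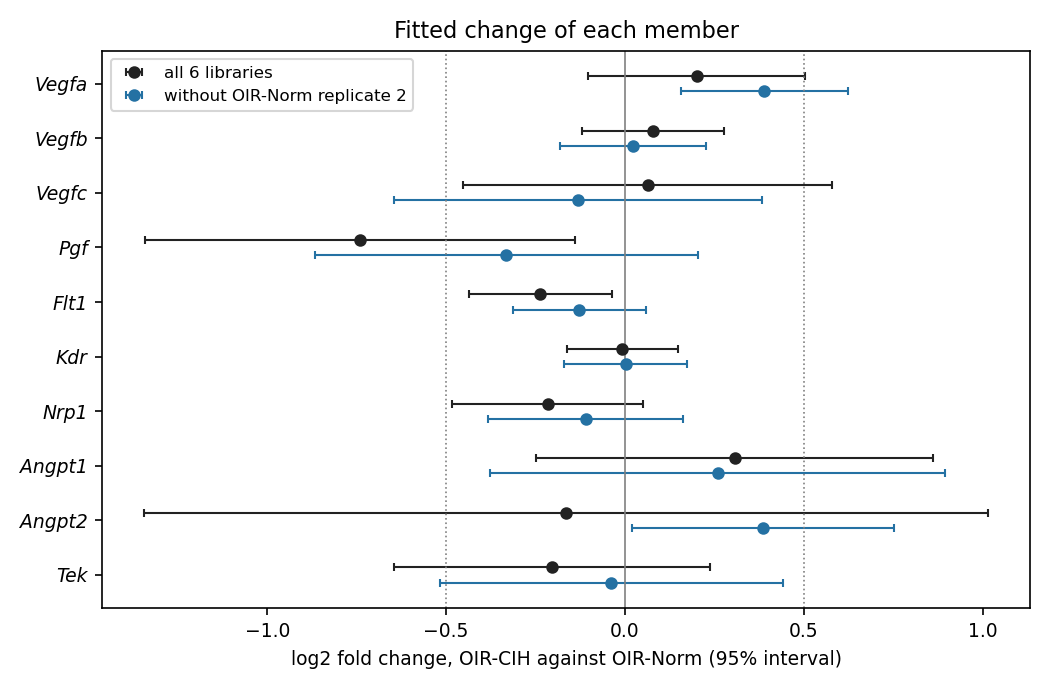
Fitted log2 fold change of OIR-CIH against OIR-Norm (horizontal axis, bars 95% intervals of the edgeR fit) for each member with all 6 libraries in black and without OIR-Norm replicate 2 in blue, with dotted lines at the fold change a call required. Kdr stays near 0 in both fits, Vegfa moves from 0.20 to 0.39, Pgf from -0.74 to -0.33 and Angpt2 from -0.16 to 0.39.

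Of the angiopoietins, Angpt2 varied most between OIR-Norm libraries. The OIR-CIH libraries held 11.9, 12.3 and 13.0 CPM of this vessel-loosening ligand, and the OIR-Norm libraries held 11.7, 22.9 and 7.32 CPM. The OIR-CIH values lay within 1.10-fold of each other and inside the 3.12-fold range of OIR-Norm. The log2 fold change was -0.16 (95% interval -1.34 to 1.01, edgeR adjusted p = 0.910), and it turned to 0.39 without OIR-Norm replicate 2 (95% interval 0.02 to 0.75, edgeR adjusted p = 0.554) and stood at -0.48 without OIR-Norm replicate 3. Angpt2 therefore had no stable direction in these libraries. Angpt2 lies within Mcph1 on the opposite strand, with 0 bases of shared exon, and which strand the deposited counts kept is not given in the sources used here.

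Angpt1, the quieting ligand, was the rarest member with 38 to 63 counts per library. It was measured at 2.47, 1.59 and 1.30 CPM in OIR-CIH and at 1.49, 1.33 and 1.45 CPM in OIR-Norm, where OIR-CIH replicate 1 alone was high. The log2 fold change was 0.31 (95% interval -0.25 to 0.86, edgeR adjusted p = 0.663), and it was 0.01 without OIR-CIH replicate 1. Tek, their receptor, was measured at 2.98, 2.81 and 3.78 CPM in OIR-CIH and at 3.89, 4.53 and 2.70 CPM in OIR-Norm. The OIR-Norm range enclosed all OIR-CIH values of Tek, and its log2 fold change was -0.20 (95% interval -0.65 to 0.24, edgeR adjusted p = 0.722). Without OIR-Norm replicate 2 it was -0.04.

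Ratios within a library compare members free of its depth, and they are read here only between libraries. The ratio of Vegfa to Flt1, the ligand to its decoy, was 10.4, 9.21 and 7.21 in OIR-CIH and 6.02, 7.12 and 6.39 in OIR-Norm. The lowest OIR-CIH library stood just above the highest OIR-Norm library, so that the groups did not overlap. This was also so for 18.4% of single genes, while the share over ratios of other gene pairs was not computed. The mean log2 difference was 0.45, with p = 0.1 in an exact two-sided permutation test, which is the smallest p that 3 against 3 libraries allow and cannot pass 0.05. Leaving out each library in turn gave 0.33 to 0.59, and 0.51 without OIR-Norm replicate 2. Neither gene was called on its own.

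The ratio of Angpt2 to Angpt1 was 4.81, 7.72 and 10.1 in OIR-CIH and 7.85, 17.2 and 5.07 in OIR-Norm. The groups overlapped, with a mean log2 difference of -0.29 (exact permutation p = 0.6), which turned to 0.19 without OIR-Norm replicate 2. Receptors set against the summed CPM of the 11 endothelial markers also overlapped between groups. As Kdr itself hardly varied, its ratio mainly moved inversely to the endothelial sum, with 1.54 in OIR-Norm replicate 2 and 3.53 in OIR-Norm replicate 3. The mean log2 difference was -0.05 for Flt1 (exact permutation p = 0.9), 0.18 for Kdr (exact permutation p = 0.8) and -0.01 for Tek (exact permutation p = 1), and each of these changed sign with single libraries left out.

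**Figure D3:**
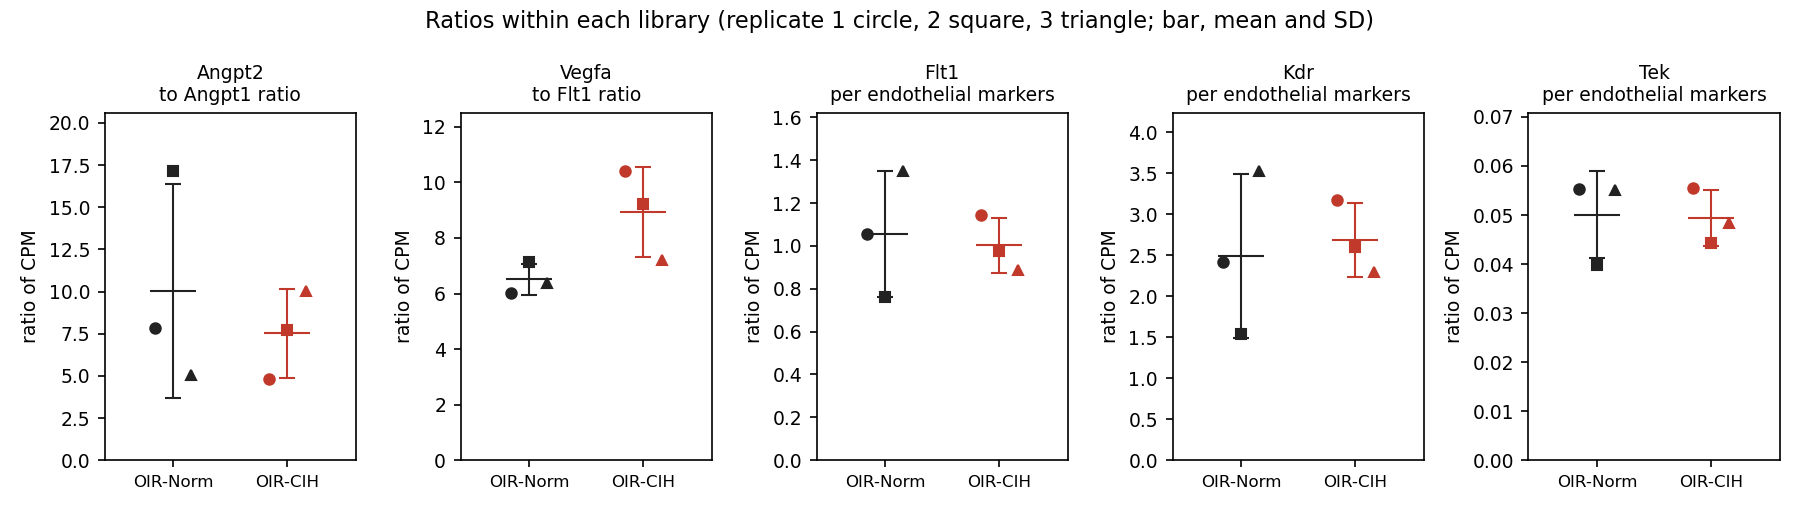
Ratio of CPM within each library (vertical axes, from 0) for 2 pairs of members and for 3 receptors against the summed endothelial markers, with circle, square and triangle for replicates 1, 2 and 3 and bars for the mean and SD over 3 libraries. The Vegfa to Flt1 ratio is 7.21 to 10.4 in OIR-CIH and 6.02 to 7.12 in OIR-Norm, and the groups overlap in the other panels.

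Several members were highest in the library with the most vascular RNA. Pgf, Flt1, Nrp1, Angpt2 and Tek, 5 of the 10 members, were highest in OIR-Norm replicate 2, as were 21.0% of all genes tested. Of the 11 endothelial markers, 10 were highest in OIR-Norm replicate 2 and 9 were lowest in OIR-Norm replicate 3. Pecam1, an adhesion molecule of endothelial junctions, was 9.38, 10.6 and 12.5 CPM in OIR-CIH and 12.3, 24.4 and 8.32 CPM in OIR-Norm. The endothelial sum was 53.8 to 78.1 CPM in OIR-CIH and 49.0 to 113.7 CPM in OIR-Norm, none of the markers was at 0, and edgeR called 0 of 11, with 0 at an unadjusted p under 0.05. The 8 mural markers of pericytes and smooth muscle summed to 90.1 to 138.2 CPM in OIR-CIH and 97.7 to 236.4 CPM in OIR-Norm, again with 0 called by edgeR and 0 at an unadjusted p under 0.05. The coefficient of variation was wider in OIR-Norm than in OIR-CIH for 7 of the 10 members, where this was so for 53.1% of all genes tested. The part of vascular RNA in the values of Pgf, Flt1, Nrp1, Angpt2 and Tek was not tested beyond the ratios given above.

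**Figure D4:**
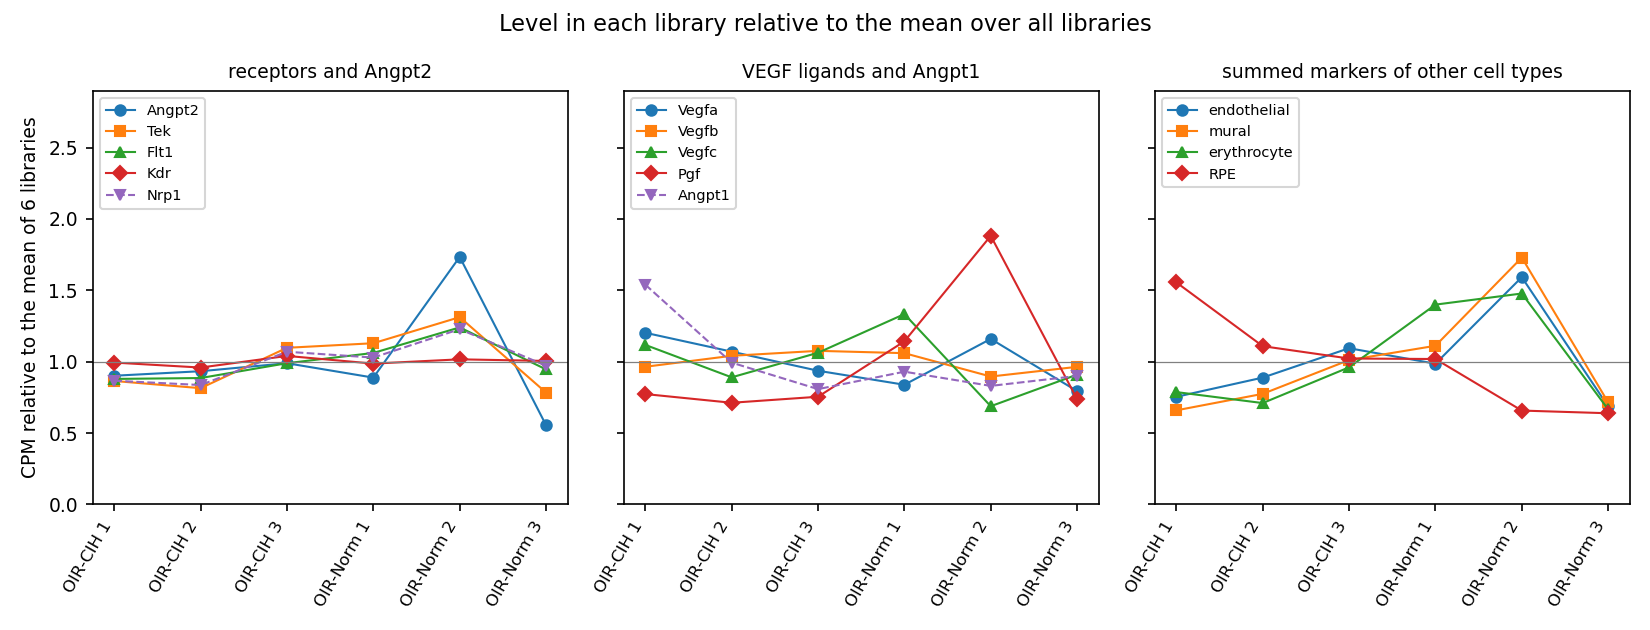
CPM in each library (horizontal axis) divided by the mean of the 6 libraries (vertical axis) for receptors and Angpt2, for the other ligands, and for summed markers of endothelial, mural, red blood and retinal pigment epithelium (RPE) cells. Angpt2, Pgf and the endothelial and mural sums peak in OIR-Norm replicate 2, and Kdr stays level.

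Cells that release VEGF ligands were also read through their markers. The 7 markers of the RPE, a VEGF-A source next to the retina, summed to 455, 325 and 299 CPM in OIR-CIH and to 298, 192 and 187 CPM in OIR-Norm. The groups narrowly did not overlap, and Vegfa and the RPE sum were both highest in OIR-CIH replicate 1. They parted in OIR-Norm replicate 2. There Vegfa, at 617.6 CPM, was above OIR-CIH replicates 2 and 3, and the RPE sum was below every OIR-CIH library. Of the 7 RPE genes 5 were higher and 2 lower in OIR-CIH, none was at 0, and edgeR called 0, with 3 at an unadjusted p under 0.05. Called were 1 of the 7 without OIR-Norm replicate 1 or replicate 3, and 0 without OIR-Norm replicate 2. The 3 astrocyte markers summed to 90.2 to 101.6 CPM in OIR-CIH and 157 to 201 CPM in OIR-Norm, again without overlap, and Gfap, which reactive Müller glia also make, fell by 1.15 on the log2 scale (edgeR adjusted p = 9.89e-06), where 0.275% of all genes tested were called lower. The 8 markers of Müller glia, the main VEGF-A source within the ischemic retina, overlapped between the groups in their sum, at 4222 to 5143 CPM and 4198 to 4751 CPM. Of these 8 genes 4 were higher and 4 lower in OIR-CIH, and edgeR and DESeq2 called 0. DESeq2 gave 2 of the 8 an adjusted p under 0.05, short of the fold change a call required. The genes at an unadjusted p under 0.05 with edgeR differed in opposite directions without overlap between groups. Rlbp1, which the RPE also expresses, had a log2 fold change of 0.34 (edgeR adjusted p = 0.118). Aqp4 had -0.31 (edgeR adjusted p = 0.0909). Both were named after their values had been seen. The part of these cell types in the Vegfa values was not tested.

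Genes that HIF is known to induce were read beside Vegfa, while HIF itself was not measured. Of 20 such genes outside the members, 17 were higher and 3 lower in OIR-CIH, and the median of their log2 fold changes was 0.19 against -0.0028 over all genes tested. Ankrd37, whose promoter is printed above, was the only one called. It rose from 20.2, 22.8 and 22.9 CPM in OIR-Norm to 36.5, 34.8 and 33.5 CPM in OIR-CIH, a log2 fold change of 0.67 (95% interval 0.48 to 0.86, edgeR adjusted p = 0.00166). Called higher were 0.12% of all genes tested.

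Hilpda, which coats lipid droplets, was 24.9, 25.8 and 23.7 CPM in OIR-CIH and 18.8, 16.8 and 17.7 CPM in OIR-Norm, with a log2 fold change of 0.48 (edgeR adjusted p = 0.0300). Ddit4, an inhibitor of mTOR signalling, was 279.8, 221.0 and 233.0 CPM in OIR-CIH and 189.8, 171.3 and 176.0 CPM in OIR-Norm, with a log2 fold change of 0.45 (edgeR adjusted p = 0.0367). Both passed the adjusted p, as did 0.514% of all genes tested, and fell short of the fold change a call required. Over 13 alternative fits each kept an adjusted p under 0.05 in 6. Without OIR-Norm replicate 2 the log2 fold change was 0.44 for Hilpda (edgeR adjusted p = 0.107) and 0.42 for Ddit4 (edgeR adjusted p = 0.162). Ankrd37 kept an adjusted p under 0.05 in all 13 alternatives. The median of the 20 genes was 0.20 without OIR-Norm replicate 2, 0.14 when OIR-Norm replicate 3 and 0.12 when OIR-CIH replicate 1 was left out, and 0.13 with the Y-linked covariate.

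Counting unadjusted p under 0.05, 8 of the 20 HIF-induced genes were higher and 0 lower in OIR-CIH, where 6.31% of all genes tested were higher at that level. The groups did not overlap, with OIR-CIH above, for 10 of the 20, where this was so for 9.12% of all genes tested. Ndrg1, a stress-response gene, had a log2 fold change of 0.31 (edgeR adjusted p = 0.141). Vegfa itself, with 0.20, lay near the middle of the list, and its interval overlapped those of Ankrd37, Hilpda and Ddit4. The difference between Vegfa and these genes was not tested. Other cell markers stood beside this pattern. The HIF sum and the RPE sum were both above in OIR-CIH and both highest in OIR-CIH replicate 1, and all 6 rod markers had positive log2 fold changes, 0.14 at the median, with 0 called by edgeR and 1 at an unadjusted p under 0.05. Their part in the values of the HIF-induced genes was not tested. The list was chosen with earlier results of these data known, and Ankrd37 is among the genes the study lists from these same libraries.

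**Figure D5:**
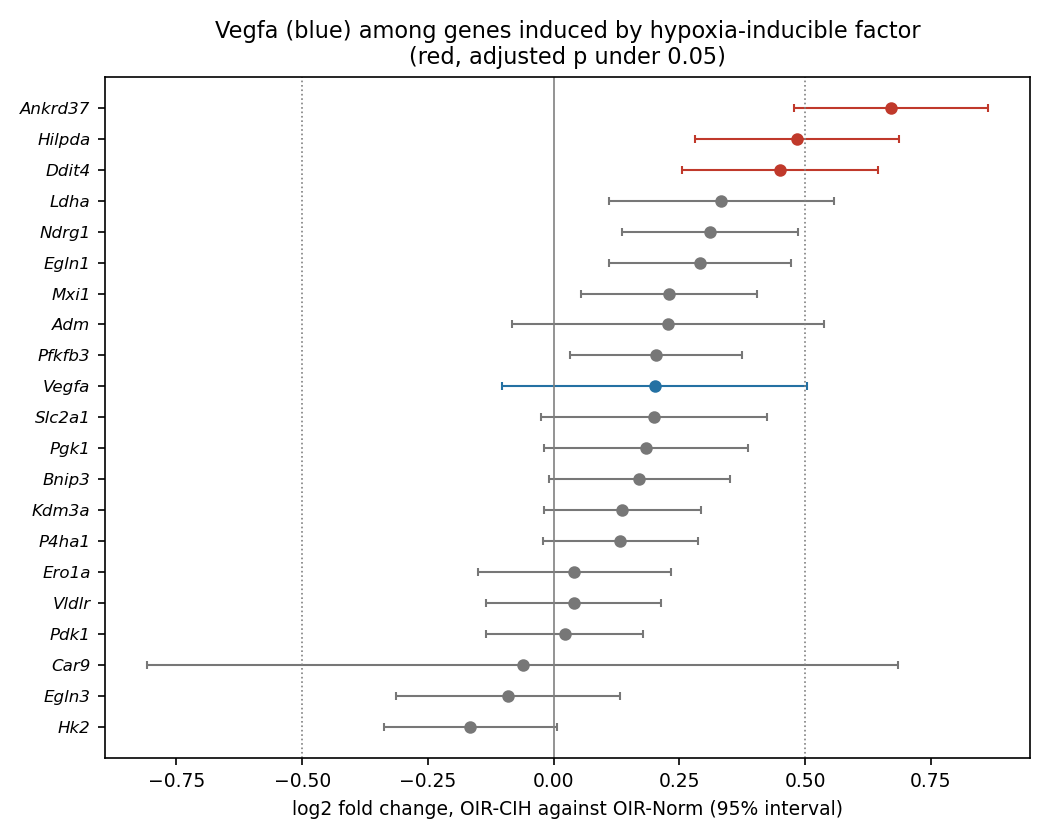
Fitted log2 fold change of OIR-CIH against OIR-Norm (horizontal axis, bars 95% intervals of the edgeR fit) for 20 HIF-induced genes and Vegfa, with dotted lines at the fold change a call required. Ankrd37, Hilpda and Ddit4 (red) have an adjusted p under 0.05, and Vegfa (blue) sits at 0.20 in the middle of the order.

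Further ligands, receptors and partners of the same families were mostly lower in OIR-CIH. Of 12, 10 had a negative and 2 a positive log2 fold change, with a median of -0.36. Called by edgeR, DESeq2 and limma were 0, and 3 had an unadjusted p under 0.05 with edgeR. Without OIR-Norm replicate 2 the median was -0.14. The lowest p in this list belonged to Dab2, an adaptor in VEGF receptor endocytosis, with 2.43, 2.22 and 3.15 CPM in OIR-CIH and 3.28, 5.51 and 3.14 CPM in OIR-Norm (log2 fold change -0.60, edgeR adjusted p = 0.295). It was -0.29 without OIR-Norm replicate 2.

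Adamts1, a protease that binds VEGF-A, was 35.0, 34.8 and 38.0 CPM in OIR-CIH and 48.6, 65.2 and 38.2 CPM in OIR-Norm, so that the groups did not overlap by a narrow margin, with OIR-CIH below as for 9.26% of all genes tested (log2 fold change -0.49, edgeR adjusted p = 0.299). DESeq2 gave Adamts1 an adjusted p of 0.0463 at a log2 fold change of -0.49, just short of the size a call required. The edgeR log2 fold change was -0.27 without OIR-Norm replicate 2. Adamts1 was the 1 partner called without OIR-Norm replicate 3 and with the Y-linked covariate. Vegfd, a further VEGFR3 ligand, was below 1 CPM in every library, with a log2 fold change of -1.28 (95% interval -2.41 to -0.15, edgeR adjusted p = 0.330). Flt4, the gene of VEGFR3, had a log2 fold change of -0.33 (edgeR adjusted p = 0.422).

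Downstream of the receptors no gene passed the test. Of 22 genes that carry signals of the VEGF receptors or TIE2 inside the cell, 21 could be tested. Of these, 10 were higher and 11 lower, and the median was -0.0038. Called by edgeR, DESeq2 or limma were 0, with 0 at an unadjusted p under 0.05 (edgeR). Their 95% intervals lay within 0.5 of 0 on the log2 scale for 17 of the 21. The lowest p belonged to Ptk2, the focal adhesion kinase, with 66.4, 64.1 and 67.7 CPM in OIR-CIH and 58.9, 61.4 and 60.3 CPM in OIR-Norm (log2 fold change 0.13, edgeR adjusted p = 0.445). Most of these kinases and adaptors are expressed in many retinal cells.

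A list of 10 endothelial genes held those that VEGF induces or that TIE2 signalling holds down through Foxo1, with Foxo1 itself. Of these, 4 were higher and 6 lower, with a median of -0.07, and 0 were called by edgeR, DESeq2 or limma. The single gene at an unadjusted p under 0.05 was Plau, urokinase, at 0.118 to 0.476 CPM in OIR-CIH and 0.346 to 1.09 CPM in OIR-Norm (log2 fold change -1.14, edgeR adjusted p = 0.345). Egr3 came next by p, with a log2 fold change of -0.58 (edgeR adjusted p = 0.455). Apln, a ligand of tip cells that is also made elsewhere in the retina, was 89.1, 75.7 and 87.5 CPM in OIR-CIH and 64.9, 82.6 and 45.9 CPM in OIR-Norm (log2 fold change 0.38, edgeR adjusted p = 0.526). Of these 10 genes 8 were lowest in OIR-Norm replicate 3 and 5 were highest in OIR-Norm replicate 2. Without OIR-Norm replicate 2 the median of the list turned to 0.12.

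Patterns over the 6 libraries were compared for Vegfa and Pgf with 14790 genes of at least 1 CPM on average, as Pearson's r of log2(CPM + 0.5). Most like Vegfa were Mboat1, F730016J06Rik, Gm37422, Misp and Cln3, with r from 0.967 to 0.980, and 67 genes had r over 0.9. Most like Pgf were Cd44, Qk, Zfp36, Zfp703 and Tubb6, with r from 0.992 to 0.998, and 281 genes had r over 0.9. With 6 points that share 2 groups and the OIR-Norm replicate 2, these values only describe the libraries.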

How the data were processed

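RNA of 3 OIR-CIH and 3 OIR-Norm retinas was sequenced from stranded mRNA libraries. The authors aligned reads with STAR 2.7.9a, and the deposited table holds their unnormalized counts, 1 whole number per gene and library. The submitters' processing notes name GRCm38 and the study's methods Ensembl 105, and no gene coordinates are printed here. Symbols and exon lengths came from GENCODE M21 by gene identifier (32158 of 32285 matched) and promoters from RefSeq.

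After TMM scaling the counts were tested with edgeR 4.0.16 in R 4.3.3 (robust quasi-likelihood fit, Benjamini-Hochberg adjustment over the 20021 genes whose total reached 10). Calls used the thresholds of the study's methods on adjusted p (0.05) and fold change (0.5 on the log2 scale). Ratios were compared by exact two-sided permutation over libraries. Intervals cover the spread between libraries. DESeq2 1.42.0 and limma 3.58.1 served as alternatives. The code was tested on simulated data. The members and all gene lists were chosen with earlier results of these data known. All 10 members and the list genes called in the main edgeR fit are named. Other list genes and cell type markers are named only in part, so that the named genes are not a full account of their lists.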

Additional observations from a re-analysis of the deposited data

How the results depend on the processing

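The 13 alternative fits (other scaling, DESeq2, limma, other count minimums, a replicate block, a Y-linked covariate and each library left out) called 0 members each, and of their 130 member log2 fold changes 125 kept their direction. The exceptions were Vegfc (-0.0012 without OIR-CIH replicate 1, -0.13 when OIR-Norm replicate 2 was left out), Kdr (0.020 without OIR-CIH replicate 2, 0.0021 when OIR-Norm replicate 2 was left out) and Angpt2, 0.39 without OIR-Norm replicate 2. With 1 library left out, Vegfa ran from 0.10 to 0.39, Vegfc from -0.13 to 0.35, Kdr from -0.042 to 0.020 and Angpt2 from -0.48 to 0.39. Genes called, 79 in the report, were 135 with DESeq2, 148 with every gene of at least 1 count and 47 to 133 with 1 library left out, lowest without OIR-CIH replicate 1 and highest without OIR-Norm replicate 3. Whether the replicate numbers pair the libraries is not known. The r of the deviations of same-numbered libraries was 0.162, 0.143 and -0.238, and that of the other pairs ran from -0.404 to 0.224. So few values cannot decide it. With the replicate block 92 genes were called, 67 of them shared with the 79, and 0 members, but 4 of the 7 RPE markers. Of the family partners 1 was called with the Y-linked covariate and 0 to 1 with 1 library left out. Of the HIF-induced genes 3 were called with no minimum fold change and 1 to 2 with 1 library left out, Ddit4 joining without OIR-CIH replicate 2 and Hilpda without OIR-Norm replicate 1. The causes were not tested.

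The log2 difference of the Angpt2 to Angpt1 ratio ran from -0.69 to 0.19 with 1 library left out, and it was 0.0015 without OIR-CIH replicate 1 and 0.19 without OIR-Norm replicate 2. That of Vegfa to Flt1 ran from 0.33 to 0.59. Per endothelial markers, Flt1 ran from -0.26 to 0.15, with 0.04 without OIR-CIH replicate 3 and 0.15 without OIR-Norm replicate 3. Kdr ran from -0.13, without OIR-Norm replicate 2, to 0.47. Tek ran from -0.17 to 0.070, with 0.065 without OIR-CIH replicate 2, 0.070 and 0.067 when OIR-Norm replicate 1 or 3 was left out and 0.00059 without OIR-CIH replicate 3. With Pecam1 and Cdh5 alone as markers, the differences were 0.17 for Flt1, 0.39 for Kdr and 0.21 for Tek. Angpt1, Vegfc, Pgf and Tek rest on 38 to 143 counts per library.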
